A study of Homo sapiens with 20 samples.

Results

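The genes described here encode the machinery with which the endoplasmic reticulum (ER) folds secreted and membrane proteins and disposes of those that fail to fold: chaperones and their helpers, disulfide enzymes, parts of the entry channel, and the degradation pathway called ERAD. They were chosen by a fixed list of 34 symbols, drawn up with earlier results of these data known. The counts below therefore describe a list picked with these data in view and are no independent support. Of the 34, 32 were read by at least 1 array probe set whose annotation names that gene alone. PDIA5 and SYVN1 are read here by probe sets whose annotation also names a microRNA gene, so they were left out by that rule. The 32 stand among 19775 genes measured in the same way.

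New secretory proteins pass through the SEC61 channel, lose their signal peptide, and are held by the HSP70-type chaperone BiP, by the HSP90-type chaperone GRP94 and by sugar-binding chaperones while disulfide bonds form. Misfolded chains are recognised, returned to the cytosol and broken down by the proteasome. When unfolded proteins build up, the sensors of the unfolded protein response raise many of these genes together, partly through XBP1 and ATF6 acting on promoter elements, and secretory cells such as those of the prostate gland depend on the same machinery in the unstressed state.

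The measurements came from 20 Affymetrix arrays of 2 human prostate cancer lines, LNCaP, which responds to androgen, and C42B, a castration-resistant derivative of it. In the C42B siRNA experiment, cells were transfected for 6 h with siRNA against the histone demethylase LSD1 (siLSD1; the gene is KDM1A) or with the control siNTC, then held for 96 h in 10% charcoal-stripped serum, which is depleted of steroids (3 arrays per group). In the LNCaP siRNA experiment, the same 2 kinds of siRNA were given at 50 nM and the cells stayed for 96 h in 10% fetal bovine serum, with 2 wells pooled per replicate (3 arrays per group). In the androgen experiment, C42B cells were kept for 72 h in 10% charcoal-stripped serum and then given 100 nM dihydrotestosterone (DHT) or the same volume of its ethanol vehicle for 16 h (4 arrays per group). Line, serum, transfection protocol and, to judge by the array medians, array scaling differ together between the siRNA experiments. The labels do not say whether wells were independent cultures, so the p-values speak only for the spread among the samples at hand.

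Values are log2 of the deposited intensity, taken from the brightest probe set of each gene, and a fold change is the difference of 2 group means on that scale. Levels are compared only within an experiment, because the arrays appear to have been scaled separately. The array medians were 78.4 to 81.2 intensity units for C42B siRNA, 84.1 to 86.1 for the androgen arrays and 63.3 to 65.1 for LNCaP. The targeted gene KDM1A had 7.88 ± 0.12 with siLSD1 against 10.29 ± 0.08 with siNTC in C42B, and 7.30 ± 0.09 against 10.08 ± 0.14 in LNCaP (SD, n = 3 per group). It fell by 81.1% and fell by 85.4% (limma adjusted p = 1.2e-05 and 2.4e-06). All 8 measured luminal prostate markers were at 6 or above in every group. With DHT 5 of them rose and 3 fell, and with siLSD1 3 rose and 0 fell in each line. Of 10 stromal, endothelial and leukocyte markers, 5 or 6 reached 6 in a group, with COL1A1, VIM, PECAM1 and VWF among them in all 6 groups. None of these 10 rose in any comparison; 1 fell with siLSD1 in LNCaP and 2 fell with DHT, where their summed level was 10.74 to 10.90 on DHT arrays and 11.08 to 11.17 on vehicle arrays. Of 6 plasma cell markers, 2 to 4 reached 6 in a group, 1 rose and 1 fell with DHT, and 1 rose with siLSD1 in LNCaP. Each sample was a culture of 1 line, so signal of such a marker does not show that cells of that type were present. The part of these markers in the results was not tested. In bulk RNA, fewer cells and less RNA per cell cannot be told apart.

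DHT moved nearly the whole set upward. At an adjusted p under 0.05 (limma, Benjamini-Hochberg over all genes), 30 of the 32 genes were higher with DHT, where 13.4% of all genes were higher, and 1 was lower, where 19.4% of all genes were. The median log2 fold change of the 32 was 0.63, beside 0.01 over all genes, and 4 genes rose by 2-fold or more: DNAJB9, DNAJC3, MANF and SDF2L1. For 30 of the 32 every DHT array lay above every vehicle array, a pattern that 14.0% of all genes had. Only OS9 had no call and only TMX1 was lower. With each array centred on its own median, 4530 of all genes were higher and 2778 lower in place of 2643 and 3827, and the counts for the set were 30 and 0.

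Depletion of LSD1, in separate experiments, gave smaller median changes of the set, and the changes differed between genes. In C42B, 18 of 32 were higher with siLSD1 and 1 was lower, against 8.66% and 9.39% of all genes, and the median log2 fold change was 0.22, beside -0.02 over all genes. In LNCaP, 10 were higher and 2 lower, against 13.4% and 12.5% of all genes, with a median of 0.13 beside 0.01. Every siLSD1 array lay above every siNTC array for 23 genes in C42B and for 13 in LNCaP, where 16.3% and 20.6% of all genes had that pattern. No gene of the set rose by 2-fold in either line, but TMX1 fell 3.70-fold in LNCaP, the largest change of the set in any comparison. Without replicate 2 or replicate 3 of the C42B siLSD1 group the count of higher genes was 11 in each case. Over all genes it was 1013 and 958 in those fits, in place of 1713.

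**Figure D1:**
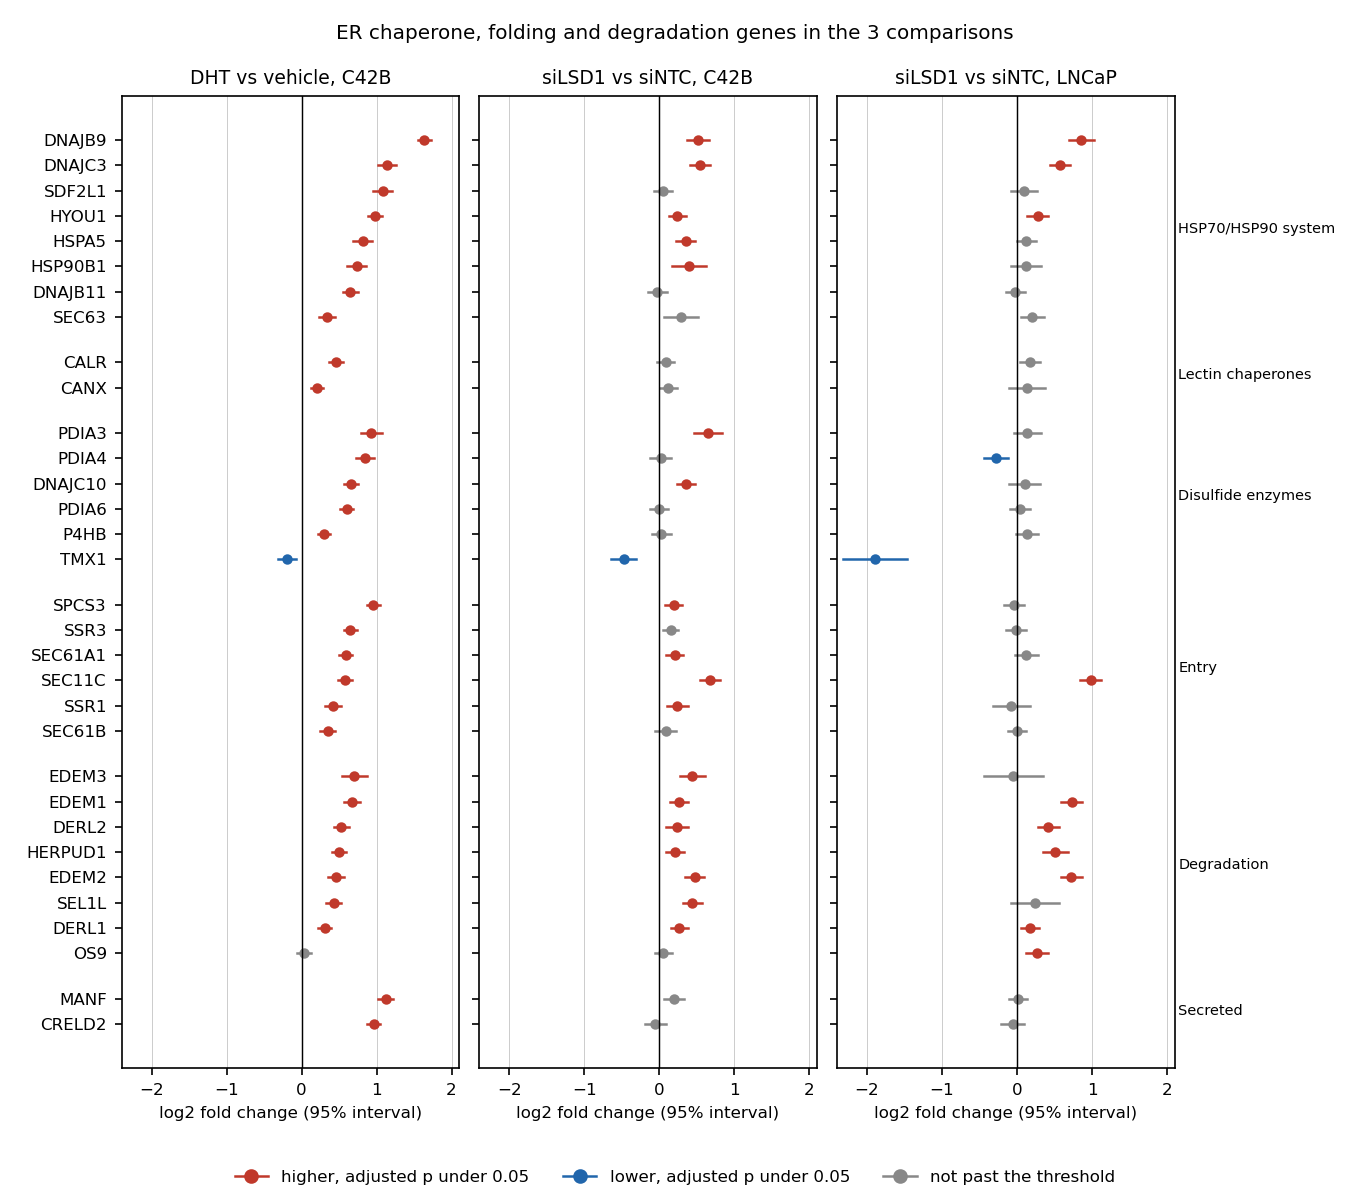
Log2 fold change (x axis) with its 95% interval for each of the 32 genes, grouped by role and ordered by the DHT value, in the DHT, C42B siLSD1 and LNCaP siLSD1 comparisons. Nearly all DHT points lie right of 0 and up to 1.64 for DNAJB9, whereas in LNCaP most points lie near 0 apart from DNAJB9, DNAJC3, SEC11C and several degradation genes on the right and TMX1 at -1.89.

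The promoters are shown here for the genes that hold 1 of 2 composite elements known for this family. ERSE reads CCAAT, any 9 bases, CCACG. ERSE-II reads ATTGG, any 1 base, CCACG. Both strands were searched from 250 bases before to 50 bases after the start in the RefSeq promoters of GRCh38.p14, where 30 of the 32 genes had an entry and PDIA3 and DERL1 had none. The 200 bases before the start follow, 5′ to 3′ on the strand of the gene, for 3 of the 6 genes with ERSE, the central chaperones HSPA5 and HSP90B1 and the secreted CRELD2, and for all 3 with ERSE-II (HYOU1, HERPUD1, SDF2L1). Capitals mark the fixed letters of each match, and a match on the opposite strand reads CGTGG first.
HSPA5 (chr9:125241344-125241543, minus strand): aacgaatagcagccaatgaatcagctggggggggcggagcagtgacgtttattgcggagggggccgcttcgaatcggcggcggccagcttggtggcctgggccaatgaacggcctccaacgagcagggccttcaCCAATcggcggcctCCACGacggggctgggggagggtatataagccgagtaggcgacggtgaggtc
HSP90B1 (chr12:103930210-103930409, plus strand): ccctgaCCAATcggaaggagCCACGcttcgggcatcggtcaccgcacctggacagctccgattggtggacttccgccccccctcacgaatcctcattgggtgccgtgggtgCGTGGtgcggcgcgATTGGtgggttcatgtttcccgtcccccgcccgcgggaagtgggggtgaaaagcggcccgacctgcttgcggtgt
CRELD2 (chr22:49918434-49918633, plus strand): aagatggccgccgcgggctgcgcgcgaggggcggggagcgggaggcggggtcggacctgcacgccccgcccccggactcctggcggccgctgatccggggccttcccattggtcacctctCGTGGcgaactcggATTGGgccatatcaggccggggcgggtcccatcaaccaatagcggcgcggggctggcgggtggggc
HYOU1 (chr11:119057206-119057405, minus strand): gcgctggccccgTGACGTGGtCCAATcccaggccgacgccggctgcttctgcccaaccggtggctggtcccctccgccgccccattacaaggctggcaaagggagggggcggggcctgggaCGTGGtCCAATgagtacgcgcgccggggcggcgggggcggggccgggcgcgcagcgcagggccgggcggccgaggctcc
HERPUD1 (chr16:56931942-56932141, plus strand): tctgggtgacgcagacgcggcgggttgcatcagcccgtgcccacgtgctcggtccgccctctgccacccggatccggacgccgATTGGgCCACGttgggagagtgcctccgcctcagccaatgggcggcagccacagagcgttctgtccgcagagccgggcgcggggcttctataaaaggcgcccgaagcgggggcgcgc
SDF2L1 (chr22:21642102-21642301, plus strand): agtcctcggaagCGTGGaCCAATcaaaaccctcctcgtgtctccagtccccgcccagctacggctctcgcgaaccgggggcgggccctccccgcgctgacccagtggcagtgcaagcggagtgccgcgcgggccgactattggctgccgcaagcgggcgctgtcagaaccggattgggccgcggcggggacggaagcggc

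HSP90B1 has 1 ERSE on each strand, beginning 194 and 89 bases before the start. The ERSE of HSPA5 begins 66 bases and that of CRELD2 80 bases before it. HYOU1 has 2 ERSE-II matches, 185 and 79 bases before the start, and the first overlaps a UPRE (TGACGTGG) that begins at 188, which is why 8 letters are in capitals there. The remaining 3 ERSE genes are shown by the site with its flanks.
CALR (chr19:12938378-12938408, plus strand): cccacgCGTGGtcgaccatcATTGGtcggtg
PDIA6 (chr2:10812847-10812877, minus strand): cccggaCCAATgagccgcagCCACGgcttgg
CANX (chr5:179698772-179698802, plus strand): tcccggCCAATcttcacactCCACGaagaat

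ERSE was found in 6 of the 30 genes, or 20%, and in 0.0916% of the 27305 genes with a promoter in the table. ERSE-II was found in 3 of 30, or 10.0%, against 0.0696%, and UPRE in 3 of 30 (HYOU1, DNAJC10 and SSR3) against 0.927%. The short core CCACG, part of both composite elements, was in 24 of 30, or 80%, against 42.1%. All 9 genes with ERSE or ERSE-II were higher with DHT, with log2 fold changes of 0.20 to 1.08 and a median of 0.73. Of the 21 without either, 19 were higher and 1 lower, with a median of 0.59, and the largest rise of the set, that of DNAJB9, was among them. With siLSD1, 4 of the 9 and 12 of the 21 were higher in C42B, and 2 of the 9 and 7 of the 21 in LNCaP. Both composite elements were picked as known for this family, so their higher share among its members is no separate support. A match of letters is a description and was not tested against these values.

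All 8 genes of the HSP70 and HSP90 system rose with DHT, with a median log2 fold change of 0.90. With siLSD1 5 rose in C42B and 3 in LNCaP. Of all genes 13.4% rose with DHT, 8.66% in C42B and 13.4% in LNCaP. DNAJB9 encodes ERdj4, a J-domain partner of BiP. Its vehicle arrays read 10.42, 10.38, 10.37 and 10.40 and its DHT arrays 11.97, 12.07, 12.01 and 12.06. The DHT arrays lay far above a vehicle group that spread by only 0.02 (SD), a rise of 1.64 ± 0.04 (SE) on the log2 scale or 3.11-fold (adjusted p = 4.3e-09), the largest of the set. In C42B its siNTC arrays read 10.24, 10.16 and 10.27 against 10.84, 10.67 and 10.69 with siLSD1. In LNCaP they read 9.53, 9.49 and 9.48 against 10.24, 10.48 and 10.36. Groups did not overlap in either line, and DNAJB9 rose by 0.51 ± 0.06 in C42B (adjusted p = 0.0021) and by 0.86 ± 0.07 in LNCaP (adjusted p = 7.9e-05).

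DNAJC3 encodes p58IPK, another J-domain co-chaperone of BiP. Its arrays read 10.52, 10.58, 10.50 and 10.50 with vehicle and 11.67, 11.57, 11.61 and 11.79 with DHT, a 2.20-fold rise (adjusted p = 2.8e-07). In C42B they read 10.30, 10.29 and 10.27 with siNTC and 10.74, 10.90 and 10.87 with siLSD1. In LNCaP they read 9.88, 9.85 and 9.91 against 10.38, 10.48 and 10.48. All siLSD1 arrays lay above all siNTC arrays in both lines, and the rises of 0.55 ± 0.06 and 0.57 ± 0.06 were nearly equal. The 3 other probe sets of DNAJC3 rose with DHT and with siLSD1 in C42B, but in LNCaP they gave 0.25, 0.28 and -0.0031, none past the threshold, and the mean over all its probe sets gave 0.28 (adjusted p = 0.086).

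HSPA5 encodes BiP, the central HSP70-type chaperone of the ER. It read 12.96, 12.86, 12.96 and 12.80 with vehicle and 13.65, 13.67, 13.70 and 13.83 with DHT, and rose by 0.82 ± 0.06 (adjusted p = 3.8e-06). In C42B the siNTC arrays read 12.96, 13.03 and 12.94 and the siLSD1 arrays 13.27, 13.37 and 13.35. That gap of 0.35 ± 0.05 passed (adjusted p = 0.0052). In LNCaP the arrays read 13.12, 13.20 and 13.18 against 13.32, 13.26 and 13.30, which separate but by only 0.13 ± 0.06 (adjusted p = 0.15). A second, dimmer HSPA5 probe set read 7.65, 7.58 and 7.59 with siNTC and 8.49, 8.39 and 8.42 with siLSD1 in LNCaP, so for this gene the LNCaP value depended on the probe set (0.83 ± 0.06, adjusted p = 5.2e-05 over all probe sets).

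HSP90B1 (GRP94, the HSP90-type chaperone), HYOU1 (an HSP110-type partner of BiP) and SEC63 (a J-domain protein of the entry channel) had DHT changes of 0.73, 0.98 and 0.34, all past the threshold. HYOU1 rose in both lines with siLSD1, by 0.24 ± 0.05 in C42B and 0.28 ± 0.06 in LNCaP; its C42B call was lost without siLSD1 replicate 3 (adjusted p = 0.062) or siNTC replicate 2 (0.051). For HSP90B1 the C42B siNTC arrays read 11.23, 11.60 and 11.56 and the siLSD1 arrays 11.82, 11.87 and 11.88. The low first control array widens that comparison, and the rise of 0.39 ± 0.10 (adjusted p = 0.030) was no longer called without siLSD1 replicate 2 (0.091), siLSD1 replicate 3 (0.097) or siNTC replicate 3 (0.051). SEC63 had 0.29 ± 0.10 in C42B and 0.21 ± 0.07 in LNCaP with full separation of the arrays in both, at adjusted p of 0.079 and 0.057; the C42B value passed without siLSD1 replicate 1 (0.38, adjusted p = 0.023), and 3 of its other probe sets passed in LNCaP at 0.32 to 0.37, while another had -0.13.

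DNAJB11 (ERdj3) and SDF2L1, which form a complex that keeps clients soluble with BiP, were called with DHT and with siLSD1 in neither line. SDF2L1 read 9.56, 9.44, 9.50 and 9.37 with vehicle and 10.53, 10.59, 10.61 and 10.47 with DHT, a 2.12-fold rise (adjusted p = 4.6e-07). DNAJB11 rose by 0.65 ± 0.04 with DHT. With siLSD1 SDF2L1 had 0.05 (95% interval -0.07 to 0.17) in C42B and 0.09 (-0.08 to 0.26) in LNCaP. The intervals of DNAJB11 were -0.15 to 0.10 and -0.15 to 0.11, so changes as large as those with DHT lie outside all 4.

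The lectin chaperones calreticulin (CALR) and calnexin (CANX), which hold glycoproteins by their sugars, both rose with DHT, and CANX had the smallest rise of the 30. It went from 13.20, 13.18, 13.19 and 13.20 to 13.40, 13.43, 13.39 and 13.36, only 0.20 ± 0.04 but clear of a vehicle spread of 0.01 (adjusted p = 0.0019). With the mean over all probe sets, 1 of them dim and lower (-0.61), CANX did not pass (0.10, adjusted p = 0.13), while its 3 other probe sets rose by 0.26 to 0.36. CALR rose by 0.46 ± 0.04. Neither passed with siLSD1: CALR had 0.09 in C42B and 0.17 in LNCaP (adjusted p = 0.27 and 0.061), and CANX had 0.12 and 0.14 (adjusted p = 0.14 and 0.42). With the mean over all probe sets CALR passed in both lines, at 0.20 and 0.28 (adjusted p = 0.030 and 0.0066).

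**Figure D2:**
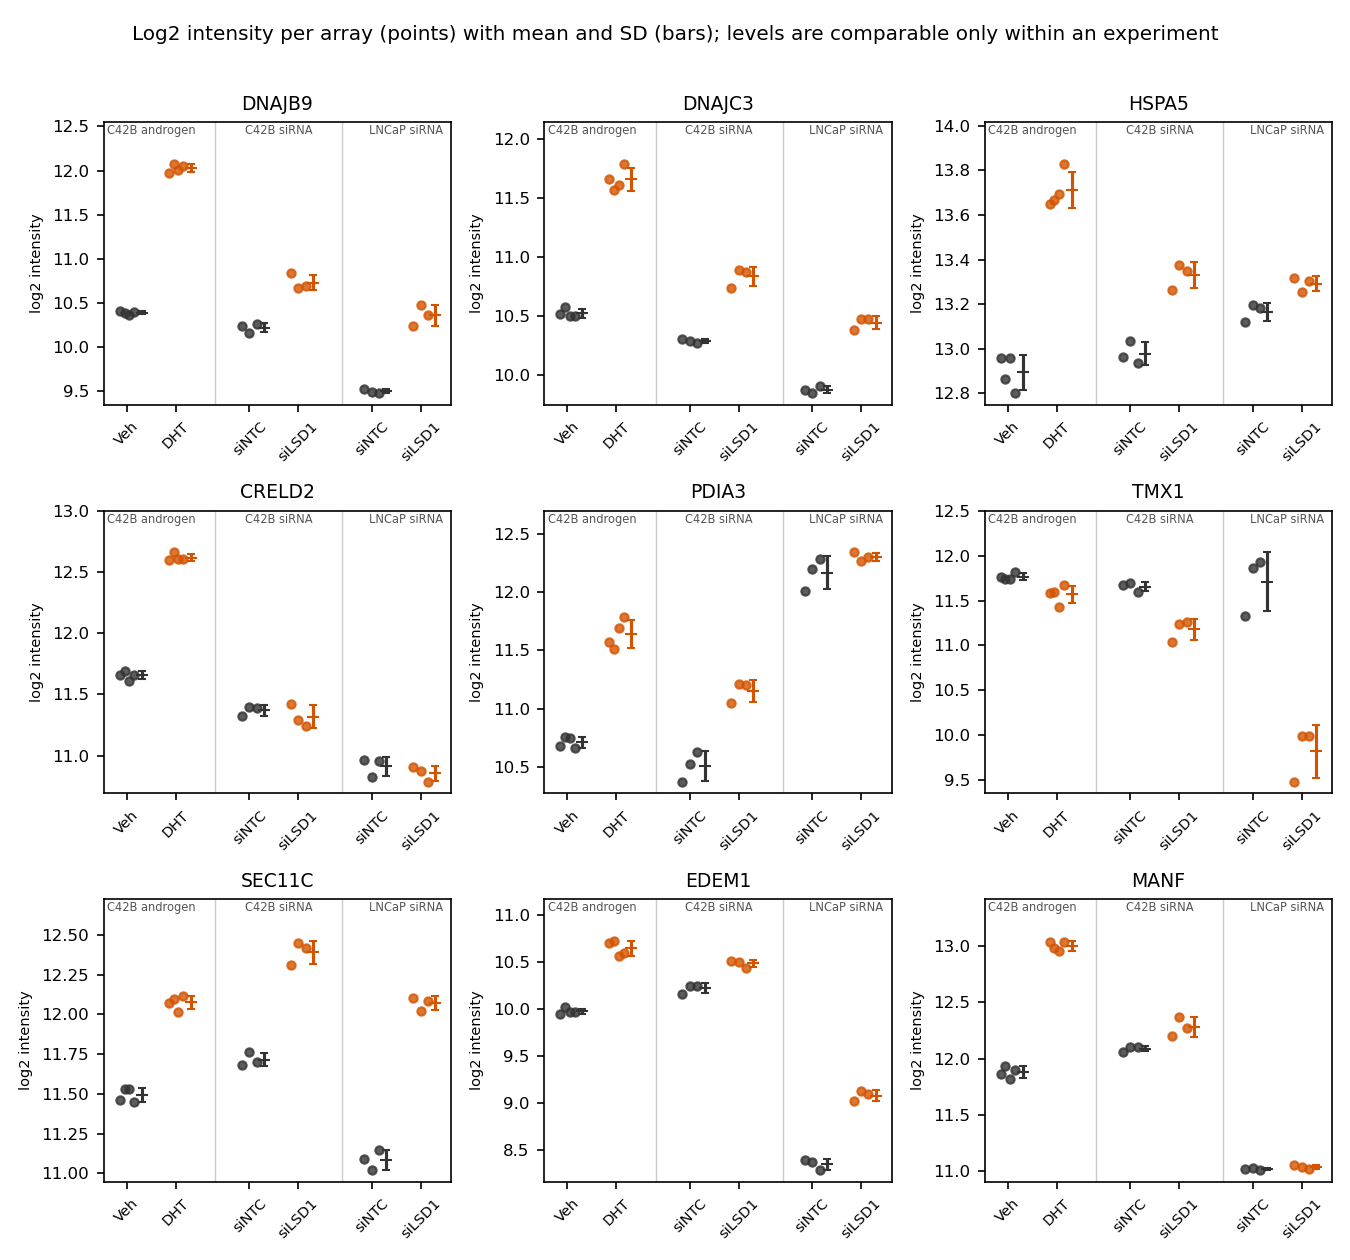
Log2 intensity (y axis) on each array for 9 genes, with vertical lines between the 3 experiments; bars give mean and SD, and levels are comparable only within an experiment. DNAJB9, DNAJC3, HSPA5, CRELD2 and MANF stand well above vehicle with DHT, the siLSD1 and siNTC arrays of CRELD2 overlap in both lines and those of MANF in LNCaP, and TMX1 drops below siNTC in both lines and furthest in LNCaP.

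Among the 6 disulfide enzymes, 5 rose with DHT and the sixth, TMX1, fell. With siLSD1 2 rose and 1 fell in C42B, and none rose and 2 fell in LNCaP. Of all genes 13.4% rose and 19.4% fell with DHT. With siLSD1 8.66% rose and 9.39% fell in C42B, and 13.4% rose and 12.5% fell in LNCaP. PDIA3 (ERp57) is the isomerase that works with calnexin and calreticulin. It read 10.68, 10.76, 10.74 and 10.66 with vehicle and 11.57, 11.51, 11.69 and 11.79 with DHT, a 1.91-fold rise (adjusted p = 3.3e-06). Its C42B arrays read 10.37, 10.53 and 10.62 with siNTC and 11.05, 11.21 and 11.20 with siLSD1, a rise of 0.65 ± 0.08 (adjusted p = 0.0022). In LNCaP they read 12.01, 12.20 and 12.29 against 12.34, 12.27 and 12.30, which overlap (0.14 ± 0.08, adjusted p = 0.26). The 2 other PDIA3 probe sets rose in both lines: 0.33 and 0.41 in C42B and 0.39 and 0.51 in LNCaP.

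PDIA4 (ERp72), a larger isomerase with several thioredoxin domains, rose from 11.26, 11.28, 11.20 and 11.14 to 12.08, 12.17, 11.97 and 12.05 with DHT (0.85 ± 0.05, adjusted p = 2.0e-06). In LNCaP it moved the other way with siLSD1, from 10.11, 10.14 and 10.29 to 9.96, 9.85 and 9.89. The groups there did not overlap and the fall of 0.28 passed (adjusted p = 0.018), yet not without siLSD1 replicate 2 (0.076), siLSD1 replicate 3 (0.064) or siNTC replicate 3 (0.055). Its second probe set had 0.02 in LNCaP. In C42B PDIA4 had 0.02 ± 0.06.

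PDIA6 (P5) and P4HB (PDI itself) rose by 0.60 ± 0.04 and 0.30 ± 0.04 with DHT and passed with siLSD1 in neither line. PDIA6 had -0.0040 in C42B and 0.04 in LNCaP, and P4HB had 0.03 and 0.13. DNAJC10 (ERdj5), a reductase that opens disulfides of proteins bound for degradation, rose by 0.66 ± 0.04 with DHT and by 0.35 ± 0.05 with siLSD1 in C42B (adjusted p = 0.0043). In LNCaP its arrays overlapped (0.10 ± 0.09), and its other probe sets ran from -0.31 to 0.35, with 1 lower and 1 higher past the threshold. That gene therefore has no settled direction in LNCaP.

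TMX1, a membrane-bound thioredoxin-like reductase, was the exception of the set. With siLSD1 in LNCaP it read 9.48, 9.99 and 9.99 against 11.33, 11.86 and 11.94 with siNTC. The groups were more than a log2 unit apart, with replicate 1 the lowest of each, and the gene was 3.70-fold lower (-1.89 ± 0.19, adjusted p = 0.00018). Of all 19775 genes, 7 fell further there. In C42B it read 11.04, 11.24 and 11.26 against 11.67, 11.69 and 11.60, a difference of -0.47 ± 0.07 (adjusted p = 0.0043). TMX1 was the 1 gene of the set lower with siLSD1 in both lines, as were 5.64% of all genes. A second TMX1 probe set fell as well, from 9.30, 9.36 and 9.35 to 7.62, 7.53 and 7.73 in LNCaP and from 10.53, 10.53 and 10.52 to 9.80, 9.71 and 9.75 in C42B. The DHT fall of 0.20 (11.58, 11.59, 11.43 and 11.67 against 11.77, 11.74, 11.74 and 11.82) was small, had no match in the second probe set (0.04), and was not called without vehicle replicate 4 (adjusted p = 0.057).

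Of the 6 entry genes, all rose with DHT, 4 with siLSD1 in C42B and 1 in LNCaP. Of all genes 13.4% rose with DHT, 8.66% in C42B and 13.4% in LNCaP. The LNCaP share of the entry genes, 16.7%, is near that of all genes. SEC11C, a catalytic subunit of the signal peptidase, was the gene that rose most with siLSD1 in each line. Its C42B arrays read 11.68, 11.76 and 11.70 with siNTC and 12.31, 12.45 and 12.42 with siLSD1. In LNCaP they read 11.09, 11.02 and 11.15 against 12.10, 12.02 and 12.09. Both gaps far exceed the spread within groups: 0.68 ± 0.06 (1.60-fold, adjusted p = 0.00051) and 0.98 ± 0.06 (1.98-fold, adjusted p = 2.2e-05). With DHT it went from 11.46, 11.53, 11.53 and 11.45 to 12.07, 12.10, 12.02 and 12.11, a rise of 0.58 ± 0.04. Its second probe set rose in all 3 comparisons too.

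SPCS3, another signal peptidase subunit, rose the most of the 6 with DHT, from 10.93, 10.97, 10.96 and 10.92 to 11.89, 11.95, 11.88 and 11.89 (0.96 ± 0.04, adjusted p = 9.0e-08). With siLSD1 in C42B it had 0.19 ± 0.05 (adjusted p = 0.033), which its 2 other probe sets did not share (-0.05 and -0.0062). That call was also lost without any single array except siLSD1 replicate 1, at adjusted p of 0.073 to 0.13. In LNCaP SPCS3 had -0.05 ± 0.06.

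SEC61A1, the pore-forming subunit of the channel, and SEC61B, its small partner, rose by 0.59 ± 0.04 and 0.35 ± 0.04 with DHT. SSR1 and SSR3, subunits of the translocon-associated TRAP complex, rose by 0.42 ± 0.05 and 0.65 ± 0.04. With siLSD1 in C42B SEC61A1 had 0.20 ± 0.05 and SSR1 0.24 ± 0.06 (adjusted p = 0.028 and 0.027). Both calls were marginal: SEC61A1 was at 0.050 to 0.098 with any 1 array left out, and SSR1 at 0.059 to 0.10 with any array but siLSD1 replicate 1 left out. SSR3 had 0.15 ± 0.04 in C42B (adjusted p = 0.058). In LNCaP none of these 4 passed, with values of 0.13 for SEC61A1, -0.0016 for SEC61B, -0.08 for SSR1 and -0.02 for SSR3. Of the 5 other SSR1 probe sets 2 passed there as higher, at 0.44 and 0.24, and 3 did not pass. Of the 3 other SSR3 probe sets 2 passed there, at 0.31 and 0.44, and 2 passed in C42B, at 0.66 and 0.46.

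Of the 8 degradation genes, most were called in each comparison. With DHT 7 rose, with a median of 0.48, where 13.4% of all genes rose. With siLSD1 7 rose in C42B and 6 in LNCaP, with medians of 0.27 and 0.34. Of all genes 8.66% and 13.4% rose there. EDEM1, EDEM2 and EDEM3 belong to the family that trims mannose from misfolded glycoproteins. EDEM1 read 10.16, 10.25 and 10.25 with siNTC and 10.51, 10.51 and 10.44 with siLSD1 in C42B. In LNCaP it read 8.39, 8.37 and 8.28 against 9.02, 9.12 and 9.09. No arrays overlapped, and EDEM1 rose by 0.26 ± 0.05 in C42B (adjusted p = 0.013, or 0.053 without siLSD1 replicate 2) and by 0.73 ± 0.06 in LNCaP (adjusted p = 7.9e-05). With DHT it rose by 0.67 ± 0.05.

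EDEM2 had 8.06, 8.14 and 8.20 with siNTC and 8.58, 8.60 and 8.65 with siLSD1 in C42B, and 7.63, 7.53 and 7.67 against 8.31, 8.36 and 8.31 in LNCaP. It rose by 0.47 ± 0.06 and 0.72 ± 0.06, with no overlap between groups, and by 0.46 ± 0.05 with DHT. EDEM3 rose by 0.44 ± 0.07 with siLSD1 in C42B and 0.70 ± 0.07 with DHT. In LNCaP it read 10.06, 10.77 and 10.64 with siNTC and 10.30, 10.50 and 10.53 with siLSD1. That control spread of 0.38 (SD) was the widest of the set, its first array lay below all the others, and the difference was -0.05 ± 0.17.

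LNCaP replicate 1 was the lowest array of both groups for SEL1L, TMX1, CANX, SSR1, EDEM3, HSP90B1 and SEC63. SEL1L, the scaffold of the main ERAD ubiquitin ligase, read 10.00, 10.29 and 10.38 with siNTC and 10.17, 10.64 and 10.57 with siLSD1 in LNCaP, a difference of 0.23 ± 0.14 (adjusted p = 0.28). With the replicate number as a block that difference passed (adjusted p = 0.045). In C42B it read 10.18, 10.15 and 10.07 against 10.61, 10.58 and 10.53, a rise of 0.44 ± 0.05 (adjusted p = 0.0021). With DHT SEL1L rose by 0.43 ± 0.05.

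HERPUD1, a membrane protein that gathers the degradation complex, read 11.75, 11.61 and 11.83 with siNTC and 12.29, 12.22 and 12.22 with siLSD1 in LNCaP, a rise of 0.51 ± 0.07 (adjusted p = 0.0010). In C42B its rise was 0.21 ± 0.05 (adjusted p = 0.025), and with DHT 0.50 ± 0.04. DERL2, one of the derlin channel proteins, rose by 0.42 ± 0.06 in LNCaP and 0.24 ± 0.06 in C42B, and by 0.53 ± 0.04 with DHT. The C42B calls of both genes were lost in most fits without 1 array, at adjusted p of 0.056 to 0.096 for HERPUD1 (siLSD1 replicates 2 and 3, siNTC replicates 1 and 2) and 0.095 to 0.12 for DERL2 (all but siLSD1 replicate 1). DERL1 rose by 0.27 ± 0.05 in C42B and 0.31 ± 0.04 with DHT. Its 3 other probe sets had -0.07, 0.38 and 0.08 in C42B, and the mean over its probe sets did not pass there (0.16, adjusted p = 0.057). In LNCaP it had 0.17 ± 0.05 (adjusted p = 0.046), and with any 1 array left out it did not pass (0.058 to 0.14), nor with the replicate block (0.091).

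OS9, a lectin that delivers glycoproteins to the SEL1L ligase, had the opposite pattern to most of the set. With vehicle it read 10.68, 10.71, 10.70 and 10.71 and with DHT 10.74, 10.72, 10.68 and 10.79, groups that overlap (0.03, 95% interval -0.06 to 0.12). In C42B siLSD1 gave 0.05 ± 0.05. In LNCaP it read 11.04, 10.94 and 11.04 against 11.30, 11.33 and 11.20, a rise of 0.27 ± 0.06 (adjusted p = 0.015) that its second probe set shared (0.24). The call was lost without siLSD1 replicate 1 (0.052), siLSD1 replicate 2 (0.068) or siNTC replicate 2 (0.054).

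CRELD2 and MANF, small ER proteins that are made and secreted under ER stress, were among the largest DHT responders. CRELD2 went from 11.66, 11.69, 11.61 and 11.66 with vehicle to 12.60, 12.66, 12.61 and 12.61 with DHT (1.95-fold, adjusted p = 9.6e-08). MANF went from 11.86, 11.94, 11.82 and 11.90 to 13.04, 12.98, 12.95 and 13.04 (2.17-fold, adjusted p = 8.1e-08). Neither was called with siLSD1. CRELD2 had -0.05 (95% interval -0.20 to 0.09) in C42B and -0.06 (-0.21 to 0.09) in LNCaP. MANF had 0.02 (-0.10 to 0.14) in LNCaP and 0.19 (0.06 to 0.33) in C42B, where all siLSD1 arrays (12.20, 12.37 and 12.27) lay above all siNTC arrays (12.06, 12.10 and 12.10) but the adjusted p was 0.059, and 0.031 without siLSD1 replicate 1.

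Set side by side, the 3 comparisons share 9 genes that were higher in each: HYOU1, DNAJB9, DNAJC3, SEC11C, EDEM1, EDEM2, HERPUD1, DERL1 and DERL2. Only DNAJB9, SEC11C and EDEM2 kept all 3 calls in every fit without 1 array and in every other processing tried. The C42B calls of HYOU1, EDEM1, HERPUD1, DERL1 and DERL2 were lost in some fits. So were the LNCaP calls of DNAJC3 and DERL1. Of all genes 1.61% were higher in all 3 and 5.29% with siLSD1 in both lines. All 18 genes higher with siLSD1 in C42B were also higher with DHT (2.60% of all genes were both), which is 18 of 18 on one side and 18 of 30 on the other; with 30 of the 32 higher with DHT, at most 2 could have fallen outside. Another 11 genes were higher with DHT and had no call with siLSD1 in either line, among them DNAJB11, SDF2L1, PDIA6, P4HB, CALR, CRELD2 and MANF. In C42B 28 of the 32 had the more positive value with DHT than with siLSD1, the exceptions being SEC11C, EDEM2, SEL1L and OS9, a difference between separate experiments that was not tested.

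The siLSD1 effects of the 2 lines were compared directly in 1 fit over the 12 siRNA arrays. The difference, C42B minus LNCaP, passed for 7 of 32 genes, where 11.6% of all genes passed. Of the 7, 3 were higher and 4 lower, against 5.56% and 6.07% of all genes. The 4 lower ones rose more in LNCaP: EDEM1 (-0.47 ± 0.08, adjusted p = 0.0020), DNAJB9 (-0.35 ± 0.10, 0.034), SEC11C (-0.31 ± 0.08, 0.026) and HERPUD1 (-0.30 ± 0.09, 0.039). TMX1 fell more in LNCaP (1.42 ± 0.22, 0.0016). PDIA3 (0.51 ± 0.12, 0.014) and SPCS3 (0.24 ± 0.07, 0.047) were the genes with the higher value in C42B. Only EDEM1, TMX1 and PDIA3 passed in all 12 fits that leave out 1 array; the adjusted p reached 0.12 for SPCS3, 0.099 for HERPUD1, 0.091 for DNAJB9 and 0.065 for SEC11C. Over all genes, 1483 were higher and 1577 lower without LNCaP siNTC replicate 1, in place of 1100 and 1200. With HSPA5, PDIA4, SSR1 and EDEM3 gained, the counts for the set in that fit were 7 higher and 4 lower. They were 2 to 3 higher and 1 to 2 lower without C42B siLSD1 replicate 2 or 3, any C42B siNTC array, any LNCaP siLSD1 array or LNCaP siNTC replicate 2. Of the 9 genes higher in C42B with no call in LNCaP, only PDIA3 and SPCS3 passed for the difference itself. It did not pass for HSPA5, HSP90B1 and EDEM3 (adjusted p = 0.069, 0.25 and 0.16). Nor did it pass for DNAJC10, SEC61A1 and SSR1 (0.16, 0.61 and 0.14) or for SEL1L.

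**Figure D3:**
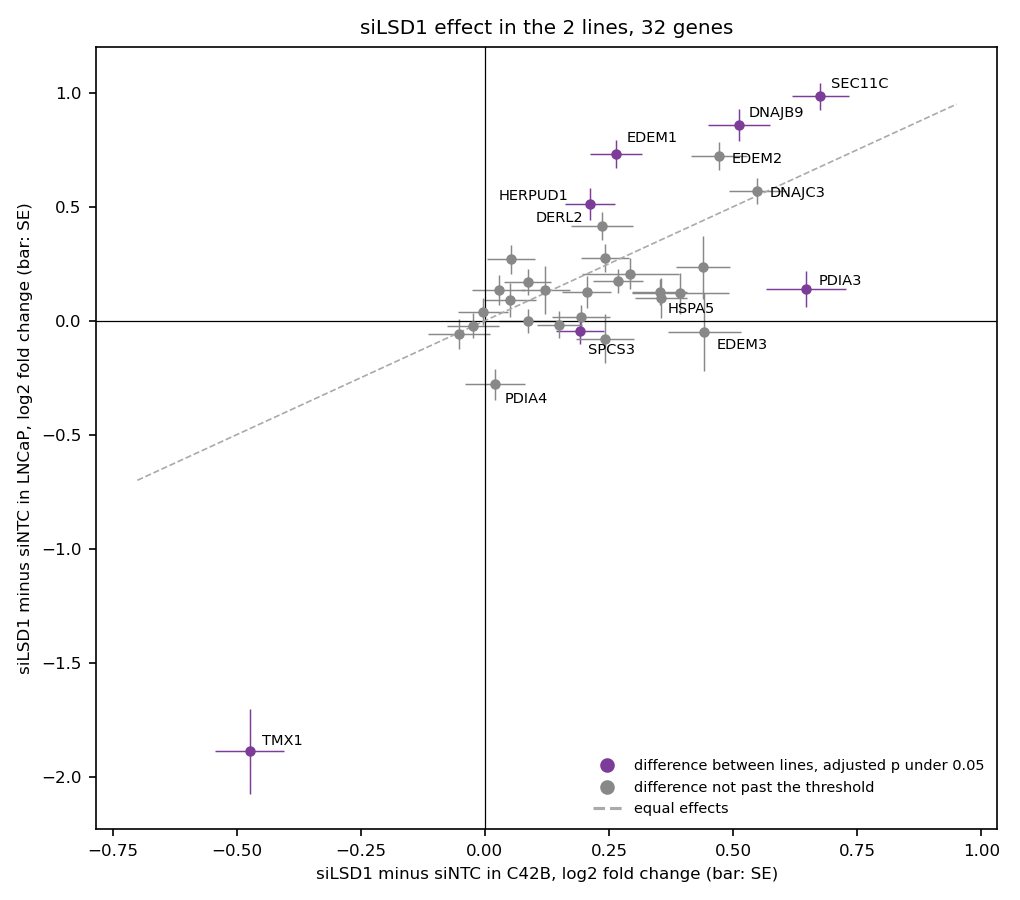
Log2 fold change with siLSD1 in C42B (x axis) against that in LNCaP (y axis) for the 32 genes, with bars of 1 SE and a dashed line of equal effects; purple points are genes whose difference between lines passed. SEC11C, DNAJB9, EDEM1 and HERPUD1 lie above the dashed line, PDIA3 and SPCS3 below it, and TMX1 stands apart at -0.47 and -1.89.

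Of the 32 genes, 25 had further probe sets, 54 in all, which were tested in a fit over all probe sets. With DHT 49 of the 54 were higher and 1 was lower, a dim CANX probe set (-0.61). With siLSD1 24 were higher and 1 lower in C42B, and 21 were higher and 3 lower in LNCaP. The share over all probe sets was not counted. By the brightest probe set of each gene, 13.4% of all genes were higher and 19.4% lower with DHT. With siLSD1 these shares were 8.66% and 9.39% in C42B and 13.4% and 12.5% in LNCaP. Of the 7 genes called for the line difference, 6 have 9 other probe sets between them, and only that of TMX1 passed (0.94). The 2 others of PDIA3 gave -0.06 and -0.10, those of SPCS3 0.12 and -0.09, those of DNAJB9 -0.09 and -0.15, that of HERPUD1 -0.20 and that of SEC11C -0.33. The second HSPA5 probe set had a difference of -0.49 (adjusted p = 0.0032), against 0.23 for the brightest. When the probe sets of a gene were averaged, the line difference did not pass for DNAJB9, PDIA3, SPCS3 and HERPUD1. In C42B, HSP90B1, SEC61A1, SPCS3, HERPUD1 and DERL1 then did not pass, and SEC63, CALR and SSR3 passed as higher. With DHT neither CANX nor TMX1 passed. In LNCaP, HSPA5, HSP90B1, SEC63, CALR, PDIA3 and SEL1L passed as higher and SEC61B as lower, while DNAJC3, PDIA4 and DERL1 did not pass.

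**Figure D4:**
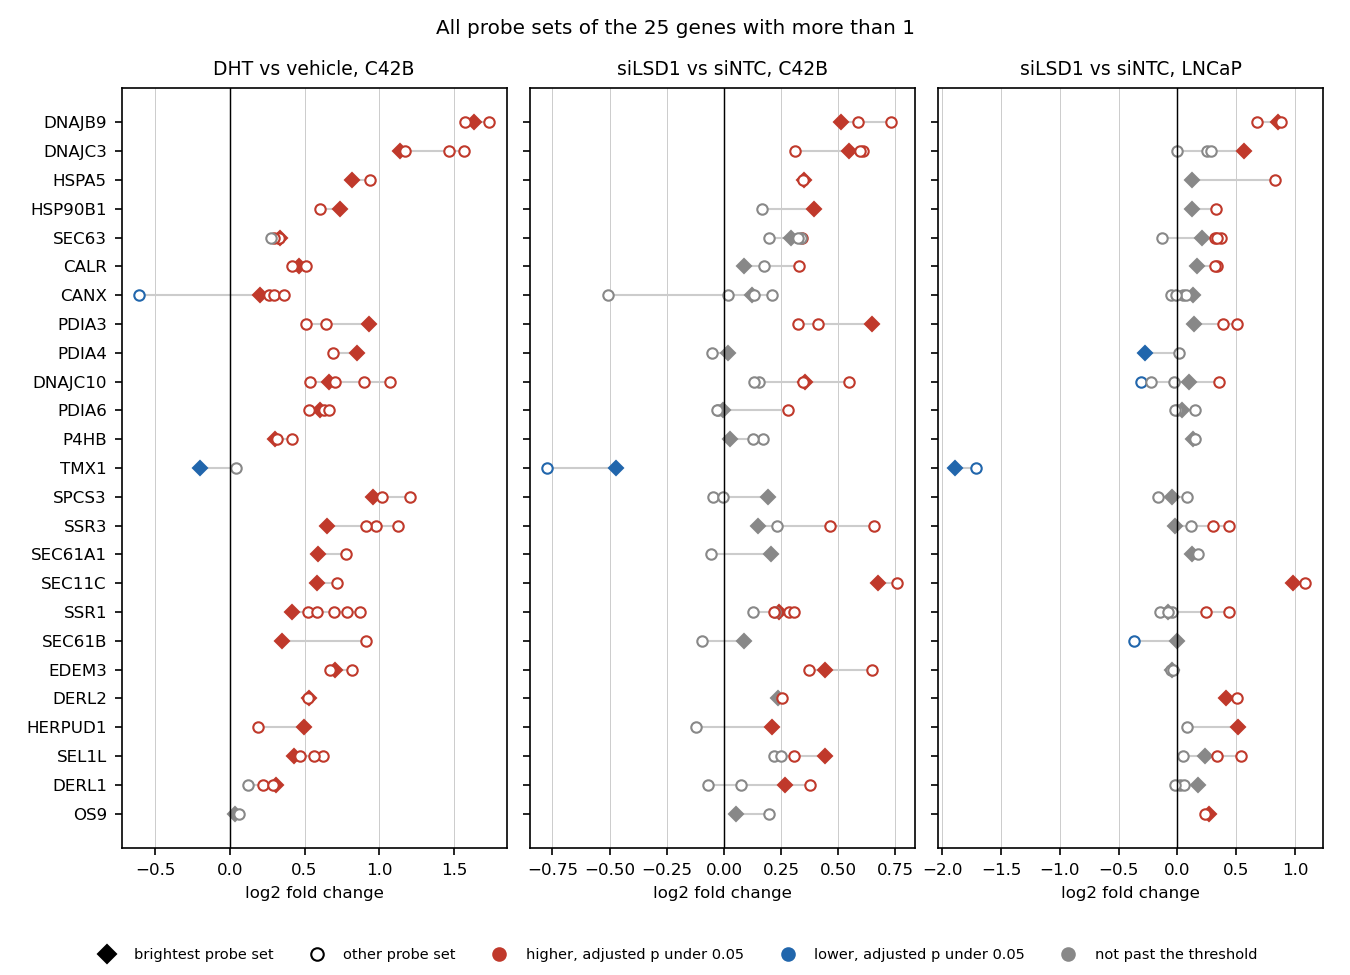
Log2 fold change (x axis) of every probe set of the 25 genes with more than 1, with a diamond for the brightest, circles for the others and colour for the call. In the DHT panel nearly all symbols lie right of 0, whereas in the LNCaP panel HSPA5, PDIA3, SSR1, SSR3 and DNAJC10 have probe sets that stand apart from the brightest.

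The other genes of the pathway gave a background for these results. Over all genes, 13.4% were higher and 19.4% lower with DHT. With siLSD1 the shares were 8.66% and 9.39% in C42B and 13.4% and 12.5% in LNCaP. Of 99 further ER genes in 5 lists, 56 were higher and 10 lower with DHT (median 0.22), 16 and 6 with siLSD1 in C42B (median 0.05) and 23 and 17 in LNCaP (median 0.07). Among 30 further folding genes 18 rose and 2 fell with DHT, led by CLGN (calmegin, a calnexin relative) at 1.43, HSPA13 at 0.75 and ERP44 at 0.63. With siLSD1 6 of these 30 rose and 3 fell in C42B (median 0.04), and 6 rose and 6 fell in LNCaP (median 0.02). ERO1B, an oxidase that supplies disulfide bonds, rose by 0.59 ± 0.05 in C42B and 1.39 ± 0.11 in LNCaP with siLSD1. Of 15 N-glycan genes 12 rose and none fell with DHT, led by STT3A and OSTC, subunits of the oligosaccharyltransferase, at 0.51 and 0.48. Of 18 further entry genes 11 rose and 2 fell with DHT, with TRAM1 at 0.73.

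Of 20 further degradation genes 9 rose and 3 fell with DHT, among them the ubiquitin-conjugating enzyme UBE2J1 (1.36) and SELENOS (1.03). In LNCaP 5 of these 20 rose and 6 fell with siLSD1, and in C42B 2 rose and 3 fell. These are 25% and 30% in LNCaP, beside 13.4% and 12.5% of all genes. In C42B they are 10% and 15%, beside 8.66% and 9.39%. ERLEC1, a lectin related to OS9, rose in all 3 comparisons, by 0.79 with DHT, 0.37 in C42B and 0.78 in LNCaP. UBE2J1 fell by 0.44 with siLSD1 in LNCaP.

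Of 16 sensors and factors of the unfolded protein response, 6 rose and 3 fell with DHT. With siLSD1 4 rose and none fell in C42B, and 6 rose and 3 fell in LNCaP. The share that fell with DHT, 18.75%, was near the 19.4% of all genes. ERN1, which encodes the sensor IRE1, rose by 1.22 ± 0.04 with DHT, 0.29 ± 0.05 in C42B and 0.29 ± 0.07 in LNCaP. EIF2AK3, which encodes the sensor PERK, rose by 0.75, 0.68 and 0.42. XBP1, whose mRNA is spliced by IRE1, rose with siLSD1 (0.32 in C42B and 0.22 in LNCaP) and had 0.02 with DHT (adjusted p = 0.85); these probe sets do not tell its spliced form apart. ATF6 had -0.04 with DHT and -0.09 in C42B, neither past the threshold, and fell by 0.20 in LNCaP. ATF4 and DDIT3, effectors of the PERK branch, fell by 0.46 and 0.43 with DHT; with siLSD1 DDIT3 rose by 0.29 in LNCaP.

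**Figure D5:**
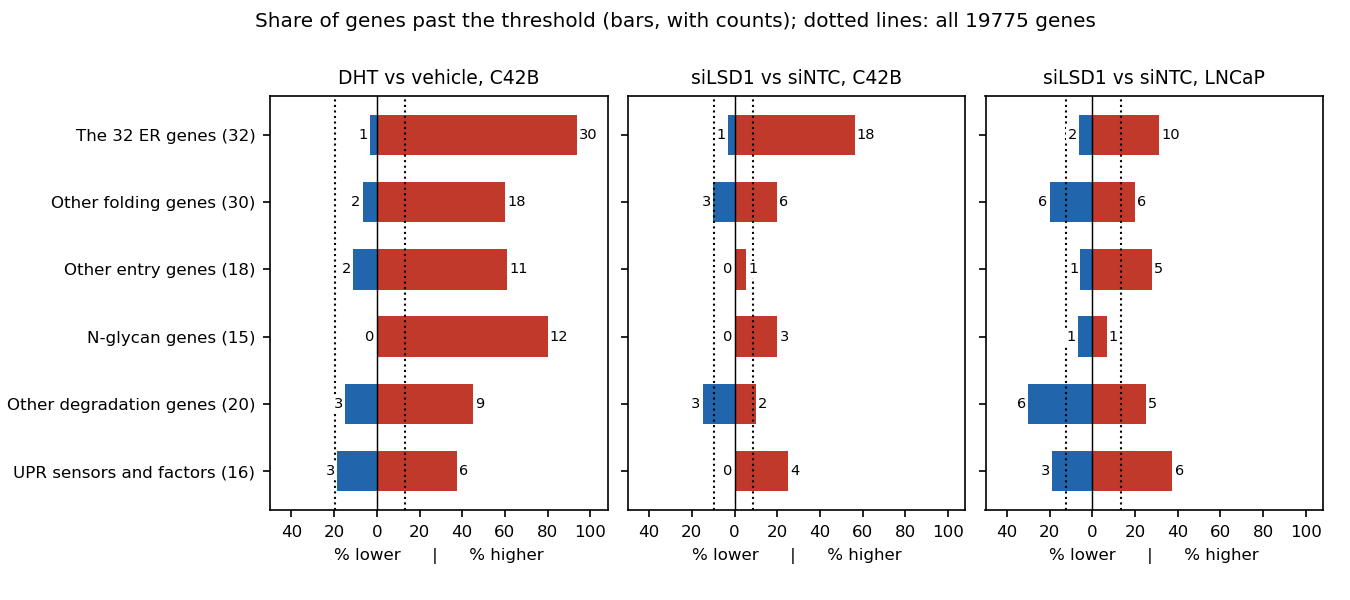
Percent of genes past the threshold, higher to the right and lower to the left (x axis), for the 32 genes and 5 further ER gene lists, with counts at the bar ends and dotted lines for all 19775 genes. With DHT the red bar of the 32 genes is the longest, at 30 of 32, followed by the N-glycan genes at 12 of 15. With siLSD1 in C42B the longest red bar is that of the 32 genes, at 18 of 32. In LNCaP it is that of the unfolded protein response sensors and factors, at 6 of 16, ahead of the 32 genes at 10 of 32.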

How the data were processed

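RNA of 20 samples was hybridised to Affymetrix arrays of 54675 probe sets. The deposited values are linear intensities that the authors made with RMA (affy, per the submitters' processing notes, versions not given); labelling used either of 2 kits, and which samples had which is not given in the sources used here. Log2 of each deposited intensity was taken, and each gene was read by the brightest of the 41091 probe sets that name 1 gene (19775 genes). Experiments were fitted apart with limma 3.58.1 in R 4.3.3 (lmFit, eBayes; Benjamini-Hochberg, threshold 0.05), tested on simulated data. The line difference was a contrast over the 12 siRNA arrays. Within groups, pairs of arrays had an SD of 0.133 to 0.212 for their log2 differences. Groups follow the sample labels. Alternatives were the mean of probe sets, a filter on dim genes, median centring or quantile normalization, trend with robust eBayes, arrayWeights, a replicate block, 1 fit over all arrays, and fits without single arrays.

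All members are named; of each further list, up to 3 called genes with the largest change per comparison and a group mean of at least 6, plus XBP1, ERN1, ATF6, ATF4 and DDIT3. Members and lists were chosen with earlier results of these data known. Protein features were not analysed here.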

Additional observations from a re-analysis of the deposited data

Results flagged for a closer look

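The siLSD1 effect differed between the lines (C42B minus LNCaP, limma contrast) for 7 genes: TMX1 by 1.42, PDIA3 by 0.51, SPCS3 by 0.24, HERPUD1 by -0.30, SEC11C by -0.31, DNAJB9 by -0.35 and EDEM1 by -0.47 on the log2 scale. Of the 9 other probe sets of these genes only the second of TMX1 passed (0.94). The share of all genes that passed for this difference was 11.6%. Only EDEM1, TMX1 and PDIA3 passed in all 12 fits that leave out 1 array. Line, serum and transfection protocol differed together between the 2 siRNA experiments.

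Among 64 groups of 4 arrays, 3 had an array far from the others, where chance gives about 1 in 20. Vehicle replicate 1 was low for EDEM3, at 9.73 beside 9.98 to 10.00 on the other vehicle arrays. DHT replicate 2 was high for DERL2, at 11.59 beside 11.49 to 11.50, and for CRELD2, at 12.66 beside 12.60 to 12.61.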

How the results depend on the processing

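With DHT 30 genes were higher without any 1 array, and 0 to 1 were lower; 0 were lower with the mean of probe sets, with median centring (median log2 fold change 0.70) and with all 20 arrays in 1 fit. In C42B siLSD1, leaving out 1 array gave 11 to 19 higher genes. In LNCaP it gave 8 to 9 higher, 1 to 2 lower and a median of 0.11 to 0.17; the median was 0.18 with the mean of probe sets and 0.10 with median centring. For the line difference, leaving out 1 array gave 2 to 7 higher, 1 to 4 lower and a median of 0.0046 to 0.08; 5 were higher among bright genes only, 6 with trend and robust eBayes, 6 with arrayWeights, and 2 were lower with the mean of probe sets. Over all genes, arrays of the same replicate number showed little pairing (correlations of -0.0964 to 0.199). The highest value was that of LNCaP replicate 1, the lowest array of both groups for SEL1L, TMX1 and other members named above. The replicate block gave 14 higher and 1 lower in C42B, 10 and 2 in LNCaP (without DERL1 and with SEL1L), 30 and 1 with DHT, and 3 and 2 for the line difference.

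Over all genes, C42B siLSD1 had 1713 higher and 1856 lower, 1013 and 1098 without siLSD1 replicate 2, 958 and 949 without siLSD1 replicate 3, and 1147 and 1183 lower without siNTC replicate 2 or 3. The line difference had 1100 higher and 1200 lower, and 1726 and 1831 with arrayWeights. With median centring the all-gene median for DHT was 0.08.

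Where either the brightest or another probe set passed, the other probe sets of opposite sign were, in C42B, DERL1 (-0.068), HERPUD1 (-0.12), SEC61A1 (-0.057), SPCS3 (-0.049 and -0.0062) and PDIA6 (0.28). In LNCaP they were DERL1 (-0.017), DNAJC10 (-0.31), DNAJC3 (-0.0031), PDIA4 (0.016), SSR1 (0.44 and 0.24) and SSR3 (0.31 and 0.44). With DHT they were CANX (-0.61) and TMX1 (0.041), and for the line difference HSPA5 (-0.49), PDIA3 (-0.062 and -0.097) and SPCS3 (-0.092). The cause was not tested. The number of arrays limits the precision.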
